A study of Homo sapiens with 4 samples.

Results

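The genes described here encode the machinery that decides whether a cell leaves G1: the D-type cyclins CCND1, CCND2 and CCND3, the cyclin-dependent kinases CDK4, CDK6 and CDK2, the INK4 inhibitors CDKN2B and CDKN2C, the CIP/KIP inhibitor CDKN1B, and SERTAD1, a coregulator that binds CDK4 and E2F1. They were chosen by symbol, with earlier results of these data known. All 10 were found, with 1 row each, among the 33117 rows of the deposited expression table. RNA came from HT29, an established human colorectal adenocarcinoma cell line, in 2 libraries of cells kept with 100 µM fluorouracil for 2 h and 2 libraries of untreated cells, both grown in DMEM with fetal calf serum. Fluorouracil is a pyrimidine analogue given in colorectal cancer. The labels name no vehicle. Nor do they tell whether replicates were grown as separate cultures; the p-values then cover only the spread of these 4 libraries, and that spread may be technical.

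D-type cyclins are made in response to growth signals and activate CDK4 and CDK6, which phosphorylate the retinoblastoma protein and thereby release E2F transcription factors. Cyclin E with CDK2 completes that step. INK4 proteins bind CDK4 and CDK6 and keep D-type cyclins from activating them, whereas CIP/KIP proteins bind cyclin and kinase together and inhibit mainly CDK2. In the colon, CCND1 is known as a gene that responds to Wnt and mitogen signals, and CDKN2B as one that responds to transforming growth factor beta.

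Each library gave 1 FPKM per gene, a fragment count divided by transcript length and by the mapped fragments of the library. Levels can thus be compared between genes, though base composition and shared exons, described below, limit this. Log2 changes are differences of log2(FPKM + 0.1), fluorouracil minus untreated; for genes of low level they are smaller than the change of FPKM itself. A mean is printed with ± its SD (n = 2). The test was limma, a linear model fitted to all genes together, on the 12462 genes whose 4 libraries averaged 1 FPKM or more. The 10 members include 9 of these, and a Benjamini-Hochberg adjusted p below 0.05 was taken as passing. For 1 gene taken alone, the smallest two-sided p that exact permutation of these 4 libraries allows is 0.333.

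Fluorouracil replicate 2 stood apart from the other libraries. Its FPKM summed to 764861, against 440558 in fluorouracil replicate 1 and 434628 and 427007 in the untreated libraries. Its differences from untreated cells also followed base composition. Among 10977 tested protein-coding genes, cut by GC content into 4 equal groups, the median log2 change in that library was -0.77 in the group with the lowest GC content and 1.27 in the group with the highest, whereas in fluorouracil replicate 1 these medians were -0.03 and 0.0018. The sources used here do not say whether this library was processed as the others were, so for a difference seen in it alone, processing and treatment cannot be told apart. Values below are therefore given per treated library, and log2 changes of members also after a trend with GC content and transcript length was removed from every library. Of 14 colon epithelium markers 12 had a mean of at least 1 FPKM, with summed levels of 7469 and 16562 FPKM in the fluorouracil libraries and 7366 and 7764 FPKM in the untreated ones; CDX1 and CDX2 stayed below 1 FPKM in all 4. Of 15 markers of fibroblasts, endothelium and leukocytes 3 reached a mean of 1 FPKM, namely LYZ, CD68 and LUM. The summed level of the 15 was 1638 and 1780 FPKM in fluorouracil libraries and 1850 and 1707 FPKM in untreated ones, nearly all of it LYZ, and COL1A2, COL3A1, DCN and CD3E were listed at 0 in all 4 libraries.

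No member passed the test, and none of all genes did (0 of 12462, 0%, by limma; 400 genes, 3.21%, had an unadjusted p below 0.05, and SERTAD1 was the 1 member among them). Other fits differed: with a replicate block 2.72% of genes passed and 1 of the 9 members, SERTAD1; without fluorouracil replicate 1 66.9% passed and 5 of the 9; without fluorouracil replicate 2 0.144% passed and 0 of the 9. Members are therefore described by whether the libraries overlapped. Both fluorouracil values lay above both untreated values in 3 of the 9 tested members, SERTAD1, CDKN2B and CDK2, and below them in 3, CCND1, CDK6 and CDKN1B. Over all genes tested, 24.4% lay above and 19.3% below, so the members' counts as deposited, at these numbers, are near the background. With the trend removed 2 of the 9 lay above and 4 below, where 30.5% and 16.8% of 10977 protein-coding genes did. These counts are descriptive only, as the members were chosen with earlier results of these data known. The median log2 change was 0.20 over the 9 members and 0.10 over all genes tested.

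Sequence upstream of the transcription start is shown for 3 members that differ in behaviour. SERTAD1 had the largest change. CDKN2B was, among the INK4 genes that are members, the one with higher values in both treated libraries. CDK4, the most abundant member in untreated cells, had values that overlapped. The set of RefSeq promoter sequences used here (GRCh38.p14) held 7 of the 10 members and had no entry for CCND1, CCND2 and CDK2. Each line gives the 250 bases before the start, 5′ to 3′ on the gene's own strand, with capitals on the GC box GGGCGG, the CCAAT box CCAAT and the E-box CACGTG on either strand.
SERTAD1, chr19:40425993-40426242, minus strand: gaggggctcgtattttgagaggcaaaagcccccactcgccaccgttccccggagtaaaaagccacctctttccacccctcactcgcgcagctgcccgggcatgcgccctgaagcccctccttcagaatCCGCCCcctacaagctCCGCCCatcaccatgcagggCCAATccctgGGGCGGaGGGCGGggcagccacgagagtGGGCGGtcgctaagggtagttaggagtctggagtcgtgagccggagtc
CDKN2B, chr9:22009306-22009555, minus strand: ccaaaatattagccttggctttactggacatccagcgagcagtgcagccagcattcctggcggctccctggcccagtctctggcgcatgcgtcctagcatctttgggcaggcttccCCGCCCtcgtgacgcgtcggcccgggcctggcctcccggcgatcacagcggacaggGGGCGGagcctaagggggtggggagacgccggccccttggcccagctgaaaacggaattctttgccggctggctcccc
CDK4, chr12:57752311-57752560, minus strand: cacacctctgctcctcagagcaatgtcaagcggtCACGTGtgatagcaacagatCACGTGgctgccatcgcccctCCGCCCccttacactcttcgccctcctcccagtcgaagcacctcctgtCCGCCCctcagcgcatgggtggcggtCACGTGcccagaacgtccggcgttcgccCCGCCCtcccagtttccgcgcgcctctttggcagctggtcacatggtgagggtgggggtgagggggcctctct

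The 3 windows differ in these letters. SERTAD1 holds 5 GC boxes and 1 CCAAT box; 4.15% of 35116 windows of the same length, from 27305 genes, hold 5 or more GC boxes, and 32.0% hold a CCAAT box. CDKN2B holds 2 GC boxes, and 24.3% of windows hold 2 or more. CDK4 holds 3 GC boxes (13.9% hold 3 or more) and 3 E-boxes, the letters that MYC with its partner MAX is known to bind, and 0.0797% of windows hold 3 or more. No match was found in any of the 12 windows of the 7 members for the cAMP response element TGACGTCA (1.65% of all windows hold it), the AP-1 letters TGANTCA (6.57%), the CArG box (1.16%), the TATA letters TATAAA (10.7%), or the E2F letters TTTCGCGC (0.439%) and TTTGGCGC (0.550%). A match or its absence describes these windows only.

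SERTAD1 showed the largest change of the members. It lies on chromosome 19, from 40421592 to 40426025 on the minus strand (GRCh38, GENCODE 29, as for all gene positions below). It measured 101 and 182 FPKM in the fluorouracil libraries, against 19.0 and 14.8 FPKM in the untreated ones, and the groups were far apart. The log2 change was 3.01 (SE 0.41, limma adjusted p = 0.671), with 2.58 in fluorouracil replicate 1 and 3.43 in fluorouracil replicate 2, where the untreated libraries differed by 0.36. Its log2 change ranked 99 from the top among the 12462 genes tested, within the highest 0.794%. This rank is descriptive only, as the members were chosen with earlier results of these data known. In level it stood at the 95.1 and 95.4 percentile of tested genes in fluorouracil libraries, against the 70.2 and 63.3 percentile in untreated ones. Once the trend was removed, the changes in treated replicates 1 and 2 were 2.55 and 2.87, and the log2 change was 2.71 (SE 0.21, limma adjusted p = 0.329). Without fluorouracil replicate 2 the log2 change was 2.58 as deposited.

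**Figure D1:**
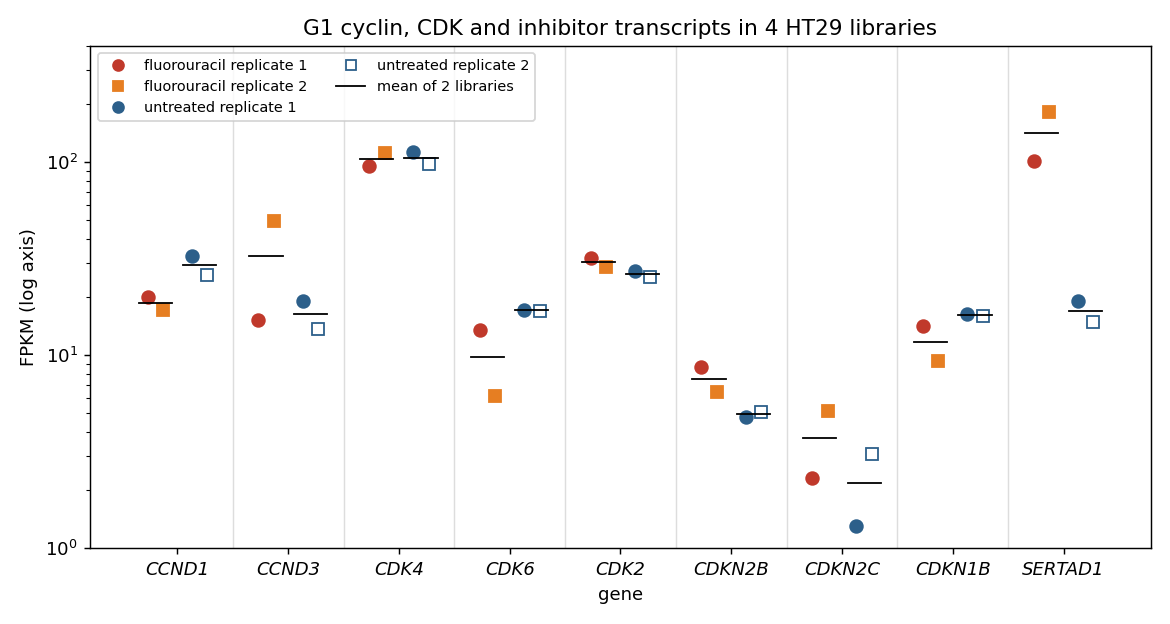
FPKM of the 9 tested members on a log axis, 1 point per library, with fluorouracil libraries left of untreated ones for each gene and a line at the mean of 2 libraries. SERTAD1 sits at 101 and 182 FPKM in fluorouracil libraries, above 19.0 and 14.8 FPKM in untreated ones, while CDK4 lies between 95.1 and 112 FPKM in all 4; CCND2, at or near 0, is not drawn.

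Of the D-type cyclins, CCND1 was lower in both treated libraries, CCND3 was higher in 1 of them, and CCND2 was at or near 0. CCND1, on chromosome 11 from 69641087 to 69654474 on the plus strand, measured 20.0 and 17.1 FPKM in fluorouracil libraries, against 32.7 and 26.1 FPKM in untreated ones. The treated values lay close together and below the untreated range. The log2 change was -0.66 (SE 0.30, limma adjusted p = 0.671). In treated replicates 1 and 2 it was -0.55 and -0.77, where the untreated libraries differed by 0.33. With the trend removed these values were -0.55 and -0.74, and the log2 change was -0.64 (SE 0.19, limma adjusted p = 0.539). In that fit 8.85% of 10977 genes had an unadjusted p below 0.05, and so did 3 of the 9 members, CCND1, CDKN2B and SERTAD1. Its GC content, 50.3%, is near the median of 48.8% over tested protein-coding genes.

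CCND3, on chromosome 6 from 41934933 to 42050357 on the minus strand, measured 15.3 and 49.7 FPKM in fluorouracil libraries, against 19.1 and 13.6 FPKM in untreated ones. Fluorouracil replicate 1 fell inside the untreated range and replicate 2 far above it. The log2 change was 0.77 (SE 0.66, limma adjusted p = 0.671) over all libraries and -0.08 without fluorouracil replicate 2. The change in fluorouracil replicate 2 was 1.62 as deposited and 0.98 with the trend removed, in a transcript of 56.2% GC. CCND2, on chromosome 12 from 4273772 to 4305350 on the plus strand, was listed at 0 and 0.00714 FPKM in fluorouracil libraries and at 0 in both untreated ones, and was not tested.

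Inside each library a factor common to all genes cancels from the balance between the expressed D-type cyclins, but a trend with GC content does not. CCND1 made up 56.6% and 25.6% of the summed D-type cyclin FPKM in fluorouracil libraries, against 63.2% and 65.7% in untreated ones. The ratio of CCND3 to CCND1 was 0.766 and 2.90 in fluorouracil libraries and 0.583 and 0.522 in untreated ones. Both treated libraries lay on the side of more CCND3 per CCND1, by a small margin in replicate 1 and a large one in replicate 2. On the log2 scale the ratio differed from untreated cells by 0.47 and 2.38 in treated replicates 1 and 2 as deposited, and by 0.46 and 1.72 with the trend removed. In replicate 1 the shift came with lower CCND1, as its CCND3 was within the untreated range. The summed level of the 3 genes was 35.3 and 66.8 FPKM in fluorouracil libraries and 51.8 and 39.7 FPKM in untreated ones, which puts 1 treated library below the untreated range and 1 above it.

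The kinases differed among themselves. CDK4, the catalytic partner of D-type cyclins on chromosome 12 from 57747727 to 57756013 on the minus strand, measured 95.1 and 111 FPKM in fluorouracil libraries, against 112 and 97.4 FPKM in untreated ones. The groups overlapped as deposited, with a log2 change of -0.02 (SE 0.30, limma adjusted p = 0.976). With the trend removed both treated libraries were below both untreated ones, at -0.17 and -0.46 (log2 change -0.32, limma adjusted p = 0.606). CDK4 shares 1078 exonic bases with TSPAN31 on the opposite strand, and strand use in counting is not given in the sources used here; TSPAN31 measured 16.3 and 15.9 FPKM in fluorouracil libraries and 17.2 and 18.1 FPKM in untreated ones. CCND1 shares 497 exonic bases with LTO1, CDK2 shares 287 with AC025162.1 and CCND3 shares 24 with AL513008.1, all on the opposite strand, so for these genes too reads of both partners cannot be told apart if strand was not used. CCND2 shares 989 with AC008012.1 on the same strand, where strand use would not separate the reads.

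CDK6, the other partner of D-type cyclins, on chromosome 7 from 92604921 to 92836594 on the minus strand, measured 13.5 and 6.13 FPKM in fluorouracil libraries, against 17.2 and 17.0 FPKM in untreated ones. Both treated values were below the untreated pair, replicate 2 much further than replicate 1. The log2 change was -0.90 (SE 0.47, limma adjusted p = 0.671), with -0.34 in fluorouracil replicate 1 and -1.46 in fluorouracil replicate 2. CDK6 has the longest transcript of the members, 11612 bases, and the lowest GC content, 39.5%. With the trend removed the changes in treated replicates 1 and 2 were -0.28 and -0.15, and the log2 change was -0.22 (SE 0.15, limma adjusted p = 0.606), so most of the difference in replicate 2 was not seen on that scale. Without fluorouracil replicate 2 the log2 change was -0.34 as deposited.

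CDK2, the partner of cyclins E and A on chromosome 12 from 55966769 to 55972784 on the plus strand, measured 32.0 and 28.7 FPKM in fluorouracil libraries, against 27.3 and 25.4 FPKM in untreated ones. The gap between the lower treated and the higher untreated value was smaller than the spread within either pair, with a log2 change of 0.20 (SE 0.27, limma adjusted p = 0.730). The groups overlapped once the trend was removed, and also after quantile normalization or scaling by the median of ratios, where the log2 change was 0.04 and 0.07. Within libraries, CDK4 was 7.03 and 18.2 times CDK6 in fluorouracil cells, against 6.53 and 5.74 times in untreated cells. The log2 change of that ratio in treated replicates 1 and 2 was 0.20 and 1.56 as deposited, and 0.11 and -0.31 with the trend removed, so the direction in replicate 2 turned. CDK4 was 2.97 and 3.88 times CDK2 in fluorouracil cells and 4.12 and 3.84 times in untreated cells, which overlap; the log2 changes of this ratio were -0.42 and -0.03 as deposited, and -0.42 and -0.50 with the trend removed.

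**Figure D2:**
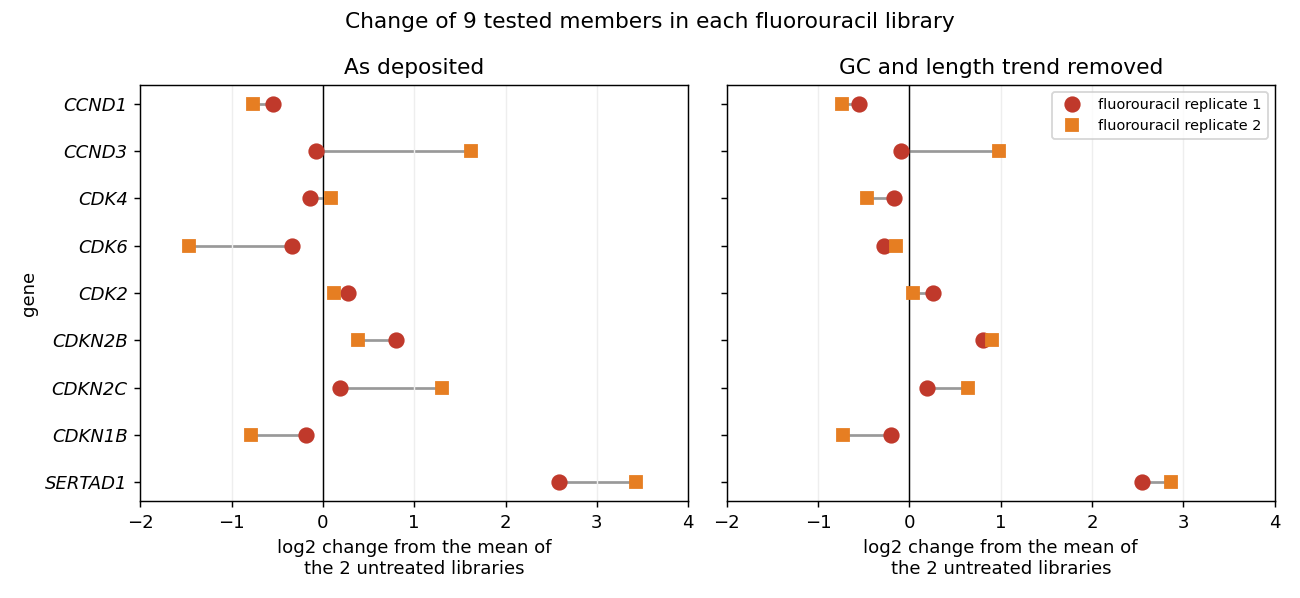
Log2 change of each tested member in each fluorouracil library from the mean of the 2 untreated libraries, as deposited (left) and with the GC and length trend of every library removed (right). SERTAD1 and CDKN2B lie right of 0 and CCND1, CDK6 and CDKN1B left of 0 for both libraries in both panels; the CDK6 points are at -0.34 and -1.46 as deposited and at -0.28 and -0.15 without the trend.

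Among the inhibitors, CDKN2B was higher and CDKN1B lower in both treated libraries. CDKN2B, on chromosome 9 from 22002903 to 22009363 on the minus strand, measured 8.67 and 6.47 FPKM in fluorouracil libraries, against 4.79 and 5.11 FPKM in untreated ones. The untreated pair was tight, and both treated values were above it. The log2 change was 0.59 (SE 0.31, limma adjusted p = 0.671), with 0.80 and 0.38 in treated replicates 1 and 2. With the trend removed these were 0.80 and 0.91, and the log2 change was 0.86 (SE 0.16, limma adjusted p = 0.445). CDKN2B-AS1, a long noncoding RNA of the same locus on the opposite strand that shares no exonic base with CDKN2B in the GENCODE basic set, measured 0.906 and 1.94 FPKM in fluorouracil libraries and 0.852 and 0.937 FPKM in untreated ones.

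CDKN2C, a second INK4 gene, on chromosome 1 from 50960745 to 50974633 on the plus strand, was the weakest of the tested members. It measured 2.31 and 5.12 FPKM in fluorouracil libraries, against 1.30 and 3.08 FPKM in untreated ones. The groups overlapped, and the untreated libraries alone differed by 1.18 on the log2 scale, more than the log2 change of 0.75 (SE 0.66, limma adjusted p = 0.671). In treated replicates 1 and 2 the changes were 0.19 and 1.31 as deposited, and 0.19 and 0.64 with the trend removed. The other INK4 genes are CDKN2D and CDKN2A; CDKN2A was taken in after its values were seen, to complete the family. CDKN2A measured 59.7 and 257 FPKM in fluorouracil libraries and 66.7 and 57.3 FPKM in untreated ones, and made up 75.5% and 89.4% of the summed INK4 FPKM in fluorouracil cells, against 84.9% and 82.0% in untreated cells. Its transcript has 61.4% GC, and its changes in treated replicates 1 and 2 were -0.05 and 2.05 as deposited, and -0.10 and 0.79 with the trend removed; the shares are as deposited. Its symbol also covers an alternative product of another reading frame, which a gene-level value does not separate.

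CDKN1B, on chromosome 12 from 12715058 to 12722371 on the plus strand, measured 14.2 and 9.31 FPKM in fluorouracil libraries, against 16.3 and 16.0 FPKM in untreated ones. The untreated values were nearly equal and both treated values were below them. The log2 change was -0.49 (SE 0.33, limma adjusted p = 0.671), with -0.18 and -0.79 in treated replicates 1 and 2, and -0.20 and -0.72 with the trend removed. Without fluorouracil replicate 2 the log2 change was -0.18 as deposited. Per CDK2 transcript, CDKN1B stood at 0.444 and 0.325 in fluorouracil cells, against 0.597 and 0.630 in untreated cells. Per CDK6 transcript, CDKN2B stood at 0.641 and 1.06 in fluorouracil cells and 0.278 and 0.301 in untreated cells. The log2 changes of the CDKN1B ratio in treated replicates 1 and 2 were -0.46 and -0.91 as deposited, and -0.46 and -0.76 with the trend removed. Those of the CDKN2B ratio were 1.13 and 1.85 as deposited, and 1.09 and 1.06 with the trend removed.

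**Figure D3:**
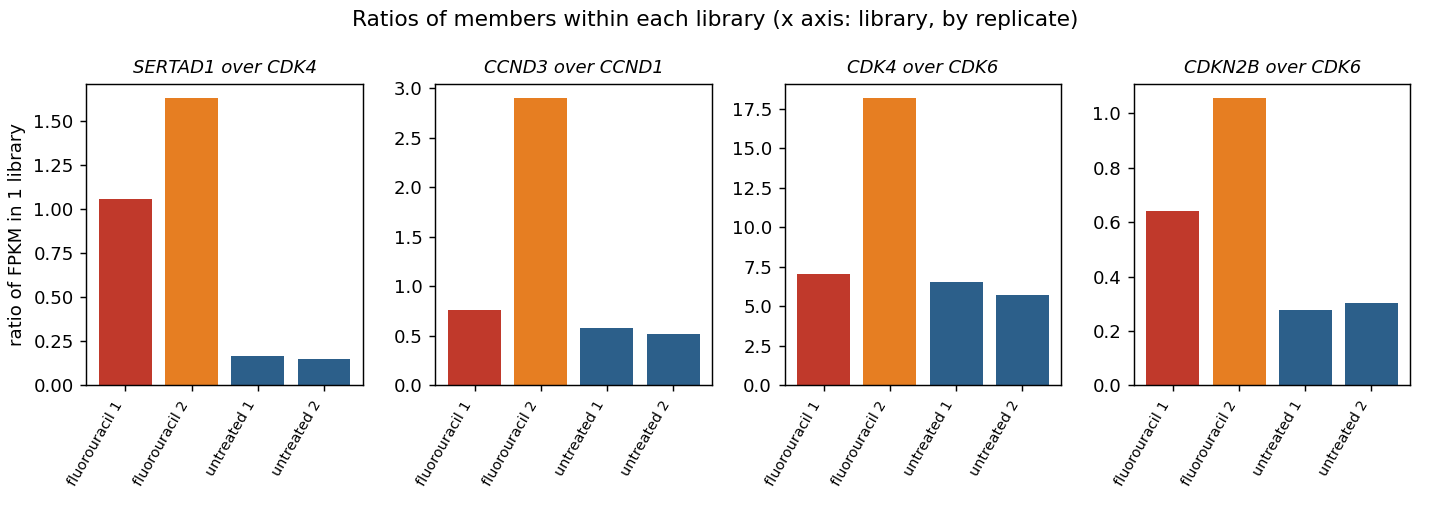
Ratios of FPKM between pairs of members inside each library, 1 bar per library, fluorouracil libraries left of untreated ones, axes from 0. SERTAD1 over CDK4 is 1.06 and 1.63 in fluorouracil libraries, against 0.169 and 0.152 in untreated ones; CDK4 over CDK6 is 7.03 in fluorouracil replicate 1 and 18.2 in replicate 2, where its log2 change of 1.56 becomes -0.31 once the trend is removed.

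The order of levels had SERTAD1 near the top in treated cells only. Levels are as deposited, and those of fluorouracil replicate 2 carry its trend with GC content. In fluorouracil cells SERTAD1 averaged 141 ± 57.1 FPKM and CDK4 103 ± 11.5 FPKM. Their values overlapped across libraries, but SERTAD1 was above CDK4 within each treated library. CCND3 followed at 32.5 ± 24.3 FPKM and CDK2 at 30.3 ± 2.33 FPKM, then CCND1 at 18.6 ± 2.02, CDKN1B at 11.8 ± 3.46, CDK6 at 9.82 ± 5.23, CDKN2B at 7.57 ± 1.55 and CDKN2C at 3.72 ± 1.99 FPKM. In that order CCND3, at 15.3 and 49.7 FPKM, overlapped both CDK2 and CCND1, and was below CCND1 in fluorouracil replicate 1. CDKN1B overlapped CDK6 across libraries but was above it within each treated library, and CDK6 overlapped CDKN2B. In untreated cells CDK4 came first at 105 ± 10.6 FPKM, followed by CCND1 at 29.4 ± 4.70 and CDK2 at 26.3 ± 1.35 FPKM. The values of CCND1 and CDK2 overlapped across libraries, but CCND1 was above CDK2 within each untreated library. CDK6, SERTAD1, CCND3 and CDKN1B stood between 16.1 and 17.1 FPKM and did not differ beyond their spread, except that both CDK6 values exceeded both CDKN1B values. CDKN2B at 4.95 ± 0.224 and CDKN2C at 2.19 ± 1.25 FPKM were lowest among the tested members. SERTAD1 was thus 0.169 and 0.152 times CDK4 in the untreated libraries, after 1.06 and 1.63 times in the fluorouracil libraries.

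Some sequence features of the transcripts set members apart from each other. The GC content of the longest transcript ran from 39.5% in CDK6 to 58.1% in CDKN2C. In fluorouracil replicate 2, CDKN2C and CCND3, the members of highest GC content, had changes of 1.31 and 1.62, and CDK6, that of lowest GC content, had -1.46; in fluorouracil replicate 1 these values were 0.19, -0.08 and -0.34. The 3′ untranslated region of CDK6 has 10219 bases and 26 copies of ATTTA, the core letters of AU-rich elements, which are known in short-lived messenger RNAs. CDKN2B has 11 copies, CCND2 has 8, CCND1 and CDKN1B have 7 each, and the other members have 0 to 2. The median over tested protein-coding genes is 2 and the upper quartile 6. These copies are not scaled to the length of the region. That length is 3084 bases in CDKN2B, 5341 in CCND2, 3192 in CCND1 and 1344 in CDKN1B, against a median of 1254. None of the 10 holds ATTTATTTA, which 7.27% of those genes hold. Genes with 7 or more copies include members higher and members lower in treated cells.

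**Figure D4:**
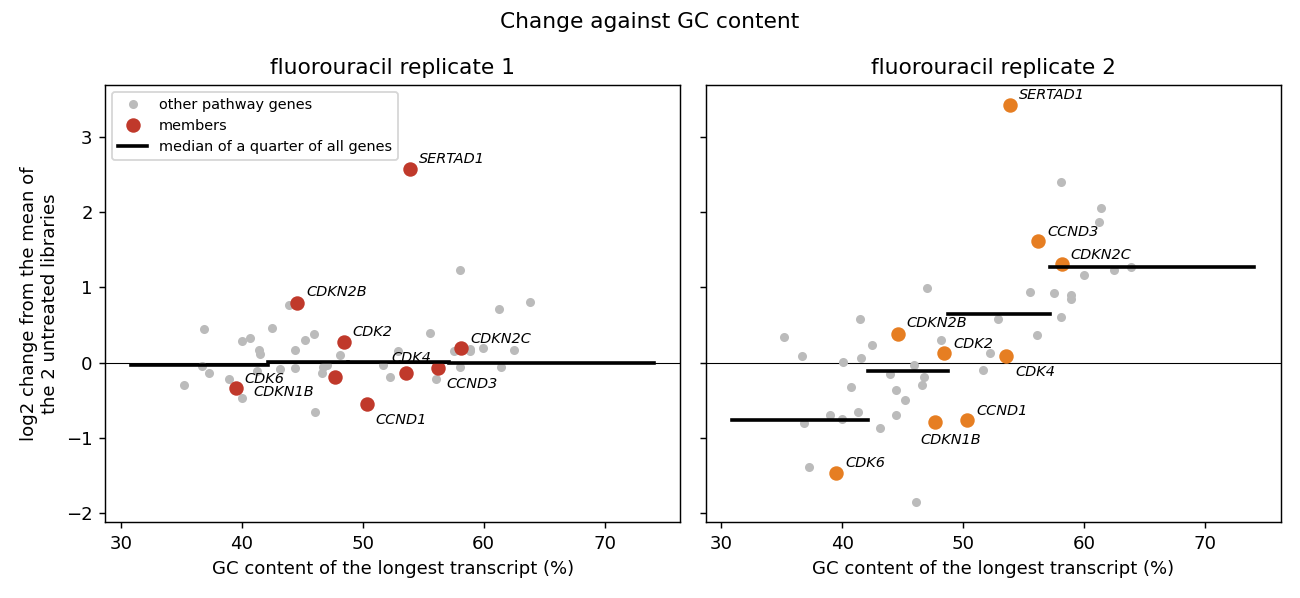
Log2 change from the mean of the 2 untreated libraries against the GC content (%) of the longest transcript, for fluorouracil replicate 1 (left) and 2 (right); coloured points are members, grey points other pathway genes without CDK3, and black lines medians of 4 equal groups by GC content of 10977 tested protein-coding genes. The lines are flat in replicate 1 and climb to 1.27 in replicate 2. There CDKN2C lies near its line, and CDK4, CDK6, CCND1 and CDKN1B lie below theirs. CCND3, CDKN2B and CDK2 lie above theirs, and SERTAD1 far above.

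Around the members, a list of 40 other genes of the cyclin, CDK, RB and E2F pathway was read in the same fit. All 40 were in the table and 39 reached the filter; SERTAD4 did not. None passed (0 of 39 by limma; 1, CDKN1A, had an unadjusted p below 0.05). Both treated values lay above both untreated ones in 13 genes, below in 8, and overlapped in 18, next to 24.4% above and 19.3% below over all genes tested. Among those above, CDKN1C and E2F2 were below 1 FPKM in both untreated libraries and reached the filter only through the treated ones. The median log2 change of the 39 was 0.09, against 0.10 over all genes. With the trend removed 17 lay above and 8 below, where 30.5% and 16.8% of all genes did.

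The 5 higher genes with the largest changes were CDKN1A, CDKN2D, CDKN1C, E2F1 and CDC37. CDKN1A, the CIP/KIP inhibitor known as a p53 target, measured 29.3 and 66.1 FPKM in fluorouracil libraries, against 14.1 and 10.9 FPKM in untreated ones (log2 change 1.82, SE 0.50, limma adjusted p = 0.671). Its changes in treated replicates 1 and 2 were 1.22 and 1.62 with the trend removed. CDKN2D, an INK4 gene, had 8.34 and 18.7 FPKM in fluorouracil libraries and 5.75 and 4.40 FPKM in untreated ones, with 0.68 in each treated replicate once the trend was removed. CDKN1C, a further CIP/KIP inhibitor, had 1.41 and 1.99 FPKM in fluorouracil libraries and 0.827 and 0.716 FPKM in untreated ones. It reached the filter only through its treated libraries, so its place among the higher genes depends partly on the filter. Its log2 change of 1.03 became 0.43 with the trend removed, with 0.77 and 0.09 in treated replicates 1 and 2. E2F1, the transcription factor restrained by the retinoblastoma protein, had 22.9 and 48.2 FPKM in fluorouracil libraries and 20.1 and 20.8 FPKM in untreated ones. CDC37, a chaperone partner that loads kinases such as CDK4 onto HSP90, had 90.8 and 178 FPKM in fluorouracil libraries and 77.1 and 82.3 FPKM in untreated ones. For E2F1 and CDC37 the log2 changes of 0.70 and 0.68 became 0.20 and 0.13 with the trend removed.

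The 5 lower genes with the largest changes included the pocket proteins RB1 and RBL2. E2F5, an E2F that acts with pocket proteins as a repressor, had 13.01 and 5.59 FPKM in fluorouracil libraries and 22.2 and 18.9 FPKM in untreated ones (log2 change -1.26, SE 0.49, limma adjusted p = 0.671), and -0.67 and -1.87 in treated replicates 1 and 2 with the trend removed. RB1, the gene of the retinoblastoma protein, had 23.0 and 9.61 FPKM in fluorouracil libraries and 25.5 and 25.05 FPKM in untreated ones. Its log2 change of -0.76 was -0.14 with the trend removed. RBL2, a related pocket protein, had 18.7 and 10.8 FPKM in fluorouracil libraries and 18.9 and 21.0 FPKM in untreated ones, and its log2 change of -0.48 was -0.11 with the trend removed. The third pocket protein gene, RBL1, named here to complete the family, had 7.75 and 3.75 FPKM in fluorouracil libraries and 6.75 and 5.98 FPKM in untreated ones, which overlap; with the trend removed both treated libraries were higher (log2 change 0.30, limma adjusted p = 0.606). CCNC, the cyclin of the Mediator kinase, and CUL1, the scaffold of the ubiquitin ligase that degrades CDKN1B, had log2 changes of -0.45 and -0.38, and -0.06 and -0.16 with the trend removed.

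As deposited, the E-type cyclins that pair with CDK2 overlapped between the conditions. CCNE1 had 19.8 and 26.5 FPKM in fluorouracil libraries and 21.1 and 14.8 FPKM in untreated ones, with a log2 change of 0.37 as deposited and 0.09 with the trend removed. CCNE2 had 21.0 and 8.77 FPKM in fluorouracil libraries and 16.5 and 14.2 FPKM in untreated ones, so that 1 treated library was above the untreated range and 1 below it. Its log2 change was -0.17 as deposited; with the trend removed it was 0.40 (limma adjusted p = 0.589), and both treated libraries, at 0.49 and 0.30, were above both untreated ones.

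**Figure D5:**
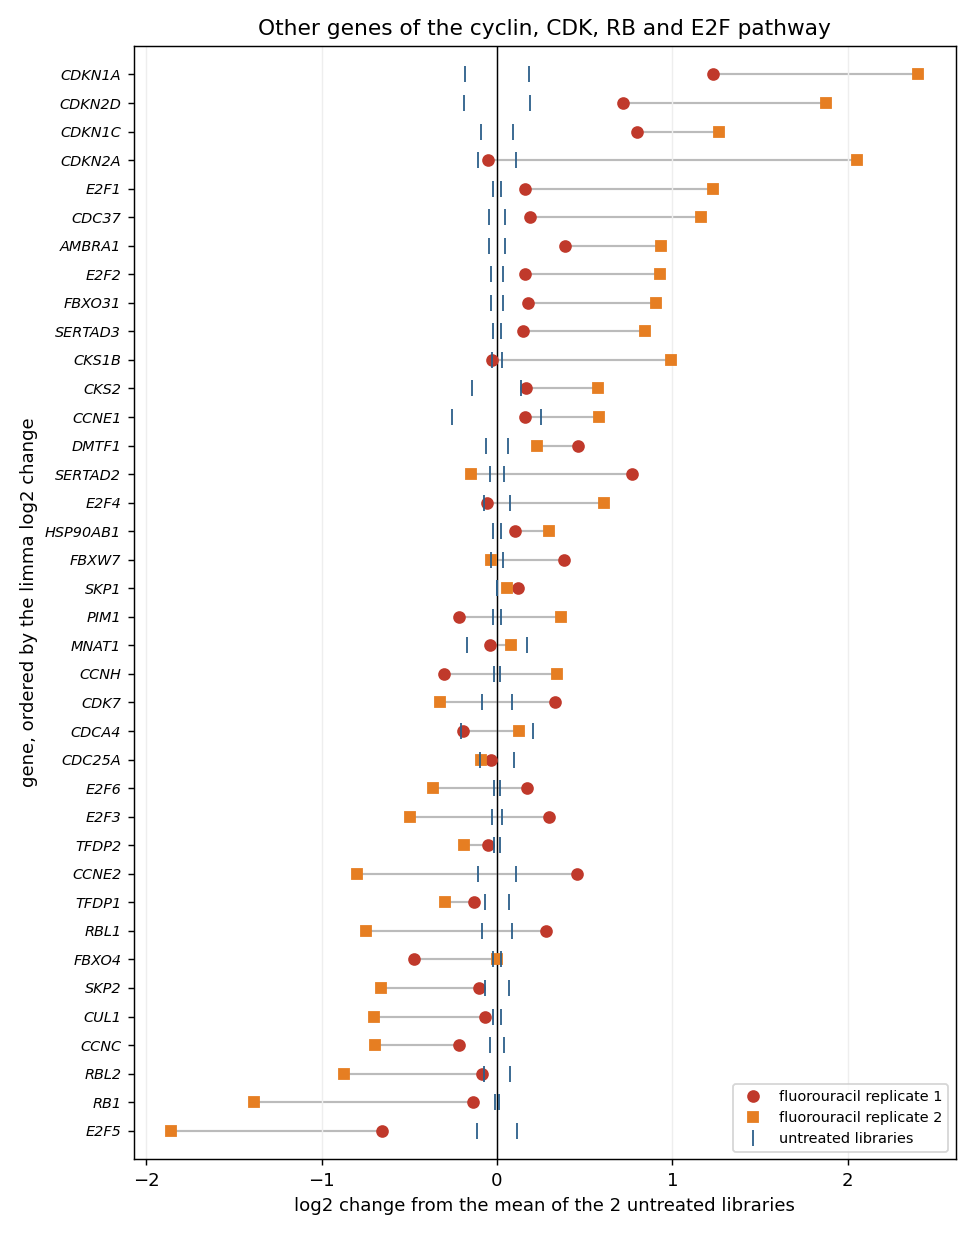
Log2 change of 38 other pathway genes in each fluorouracil library from the mean of the 2 untreated libraries, with blue ticks for the untreated libraries themselves; CDK3, listed at 0 in 3 libraries and at 9.93 FPKM in fluorouracil replicate 2, is not drawn. CDKN1A, at 1.23 and 2.40, is at the top and E2F5, at -0.65 and -1.86, at the bottom.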

How the data were processed

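RNA-seq of 4 HT29 libraries was read as FPKM values that the authors deposited in 1 table, with symbols and no positions. The submitters' processing notes name TopHat2 2.1.0, Cufflinks 2.2.1 and the builds hg38 and mm10, with no role; for annotation and strand use the sources used here give nothing. The header names no unit, and FPKM follows from Cufflinks and the values. Fragments per library are unknown, so no counting interval was computed; below 0.5 FPKM, ratios shared within 0.1% put untreated replicate 2 at 1.05 and fluorouracil replicate 1 at 1.02 times the depth of untreated replicate 1, and gave none for fluorouracil replicate 2. Its deposited values carry a median of 6 significant digits, the others 16.

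Rows with a date-like number for a symbol (28) were left out. Values were log2(FPKM + 0.1). The test, limma 3.58.1 in R 4.3.3, was fitted with a trended prior on 2 residual degrees of freedom and tried on simulated data. The simulation gave every library the spread of the untreated pair, so it does not tell how the test behaves with fluorouracil replicate 2. To remove the trend with GC content and length, loess (span 0.3) was fitted to the difference of a library from the 4-library mean, over 10977 protein-coding genes, with the longest GENCODE 29 basic transcript. Promoters came from RefSeq. Alternatives were other pseudocounts, filters, scalings, each library left out and a replicate block. The members and lists were chosen with earlier results of these data known. Pathway genes named are the 5 largest changes in each direction among those with non-overlapping groups, plus CCNE1, CCNE2, RB1 and E2F1; others were named after their values were seen.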

Additional observations from a re-analysis of the deposited data

How the results depend on the processing

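Over 15 alternatives, CCND1, CDK6, CDKN1B, CDK2, CDKN2B and SERTAD1 kept the sign of their log2 change, and all but CDK2 kept groups that did not overlap. For these genes most alternatives could not give another outcome. Pseudocounts, filters, the block, the prior and rows or libraries left out keep the order of the remaining values of a gene. Only quantile normalization, scaling by the median of ratios and removal of the trend could change it. The count of genes passing was 0 in all but 3: it was 339 (2.72%) with a replicate block, and ran from 0 to 8337 when 1 library was left out (8337 or 66.9% without fluorouracil replicate 1, 18 or 0.144% without fluorouracil replicate 2; the single treated library left is given the spread of the untreated pair). With the block SERTAD1 passed (limma adjusted p = 0.000124) and no other member did; the replicates share only a number, and deviations of same-numbered libraries correlated at -0.05 across 12462 genes. The block with the GC and length trend removed gave 0. Without fluorouracil replicate 1, CCND1, CCND3, CDK6, CDKN1B and SERTAD1 passed (limma adjusted p from 0.00219 to 0.0264). Pathway genes passing then numbered 0 to 24 over the libraries left out, those higher 13 to 20 and those lower 8 to 15; quantile normalization left 8 higher. The sign turned over the libraries left out for CCND3 (-0.075 to 1.62), CDK4 (-0.14 to 0.091) and CCNE2 (-0.80 to 0.45), and for CCNE2 with the trend removed, with or without the block (0.40); the cause was not tested. Scaling by the median of ratios put the median of all genes at -0.03, against 0.10 as deposited.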
